A study of Saccharomyces cerevisiae with 6 samples.

Results

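The 9 lysine biosynthesis genes of budding yeast (Saccharomyces cerevisiae), LYS1, LYS2, LYS4, LYS5, LYS9, LYS12, LYS14, LYS20 and LYS21, were selected by name from the platform's gene symbols, among 5656 genes that the arrays measured with at least 1 probe set of their own. They were compared between wild-type strain Y117 and strain Y118, which carries histone H2B with the K123R substitution, an arginine in place of the lysine that is monoubiquitinated in yeast H2B. Early stationary phase cultures of both strains were inoculated in triplicate in rich medium (YPD) at an optical density of 0.3 and shaken at 30oC for 7 hours to an optical density of 2, and total RNA of each culture went to 1 Affymetrix S98 array, a 1-colour oligonucleotide array. The labels name no further alleles, and any other difference between Y117 and Y118 cannot be told apart from the substitution. They do not say whether the cultures had separate starters, so p-values cover only the variation among 3 cultures per strain.

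Yeast makes lysine by the alpha-aminoadipate pathway, which fungi use and most bacteria and plants do not. Homocitrate synthase starts it from 2-oxoglutarate and acetyl-CoA, the next steps lead through homoisocitrate to 2-oxoadipate and alpha-aminoadipate, and the final enzymes reduce alpha-aminoadipate and pass through saccharopine to lysine. The first step is inhibited by lysine. The activator Lys14 raises transcription of the pathway's genes when the intermediate alpha-aminoadipate semialdehyde is present, and Gcn4, the general activator of amino acid biosynthesis, acts on several of them as well. Rich medium supplies lysine.

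LYS20, which encodes a homocitrate synthase, was the 1 lysine gene of 9 that passed the test, beside 6.68% of all probe sets (4.22% higher). Counted over genes, with the mean of each gene's probe sets, the share was larger: 843 of 5656 genes passed, 574 of them higher. LYS20 was 1.25-fold higher in H2B K123R, and its call held in 8 of 16 alternative settings. The other 8 lysine genes did not pass: LYS21, LYS2, LYS5 and LYS1 had positive differences and LYS4, LYS12, LYS9 and LYS14 negative ones. The differences of the pathway's genes did not share a sign. Every 95% interval of the 9 differences lay within 2-fold, the lowest bound being 1.36-fold lower (LYS9) and the highest 1.69-fold higher (LYS5). Values are probe set signals on the authors' linear scale, folds are on the log2(signal + 16) scale, and tests are limma's with Benjamini-Hochberg adjustment over all 9275 probe sets at a threshold of 0.05.

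Median signals per array lay between 130.5 and 140.2. H2B K123R replicate 1 stood apart: its log2 signals correlated at 0.958 and 0.969 with the other arrays of its group, against 0.991 between those and 0.992 to 0.995 between wild-type arrays, and its 3' to 5' ratio of actin control signal was 1.98, against 1.40 to 1.59 on the other arrays. Results are therefore also given without it. The lysine gene signals, from 61.0 to 4858, all lay above the 0.922 to 18.3 of the 4 mouse control probe sets, which match no yeast gene.

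The homocitrate synthases come first in the pathway. LYS20 (YDL182W) read 3984, 3576 and 3676 on the wild-type arrays of replicates 1, 2 and 3, and 4529, 4665 and 4858 on the corresponding H2B K123R arrays. The groups did not overlap, and the gap between them was wider than the spread within either. LYS20 rose from a mean of 3745 ± 213 to 4684 ± 165 (SD, n = 3 arrays per strain, as for all means given), a log2 difference of 0.32 with a 95% interval of 0.15 to 0.49 (limma adjusted p = 0.0480). This was close to the limit: LYS20 ranked 599 by p among the 620 probe sets that passed. Without H2B K123R replicate 1 the call was kept (0.35, adjusted p = 0.0307), and it was lost when any 1 of the other 5 arrays was left out, with adjusted p between 0.0775 and 0.197 and log2 differences between 0.29 and 0.37. Those fits also called fewer probe sets of any kind than the 620 on all arrays. The count was 500 without H2B K123R replicate 2 and 70 without replicate 3. Without wild-type replicates 1, 2 and 3 it was 59, 42 and 22, whereas the fit without H2B K123R replicate 1 called 1023. The LYS20 call was also lost with array medians set equal (adjusted p = 0.0712) and without a variance trend (adjusted p = 0.0845).

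LYS21 (YDL131W), the second homocitrate synthase gene, read 1788, 1731 and 1738 in wild type and 2313, 1875 and 2065 in H2B K123R. All 3 mutant values were above all wild-type values, but they were spread widely, with replicate 1 the highest. The means of 1753 ± 31.1 and 2085 ± 220 gave a log2 difference of 0.24 (0.03 to 0.46, adjusted p = 0.162), or 0.17 without replicate 1. Another probe set is assigned to both LYS20 and LYS21 and was kept out of the counts. It read 5196, 4771 and 4704 in wild type and 4379, 5206 and 5566 in H2B K123R, so that replicate 1, high for LYS21, was the lowest of all 6 arrays here. Its log2 difference was 0.04 (-0.21 to 0.29, adjusted p = 0.846), and 0.14 without replicate 1 (adjusted p = 0.259). The call of LYS20 was thus not repeated on the probe set that the isozyme genes share, whose interval still includes a rise. The difference of the shared probe set was 0.18 with array weights (limma adjusted p = 0.0594) and 0.15 after quantile normalization (adjusted p = 0.289). It was -0.03 without H2B K123R replicate 3 (adjusted p = 0.880). How far each probe set reads both transcripts was not tested.

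**Figure D1:**
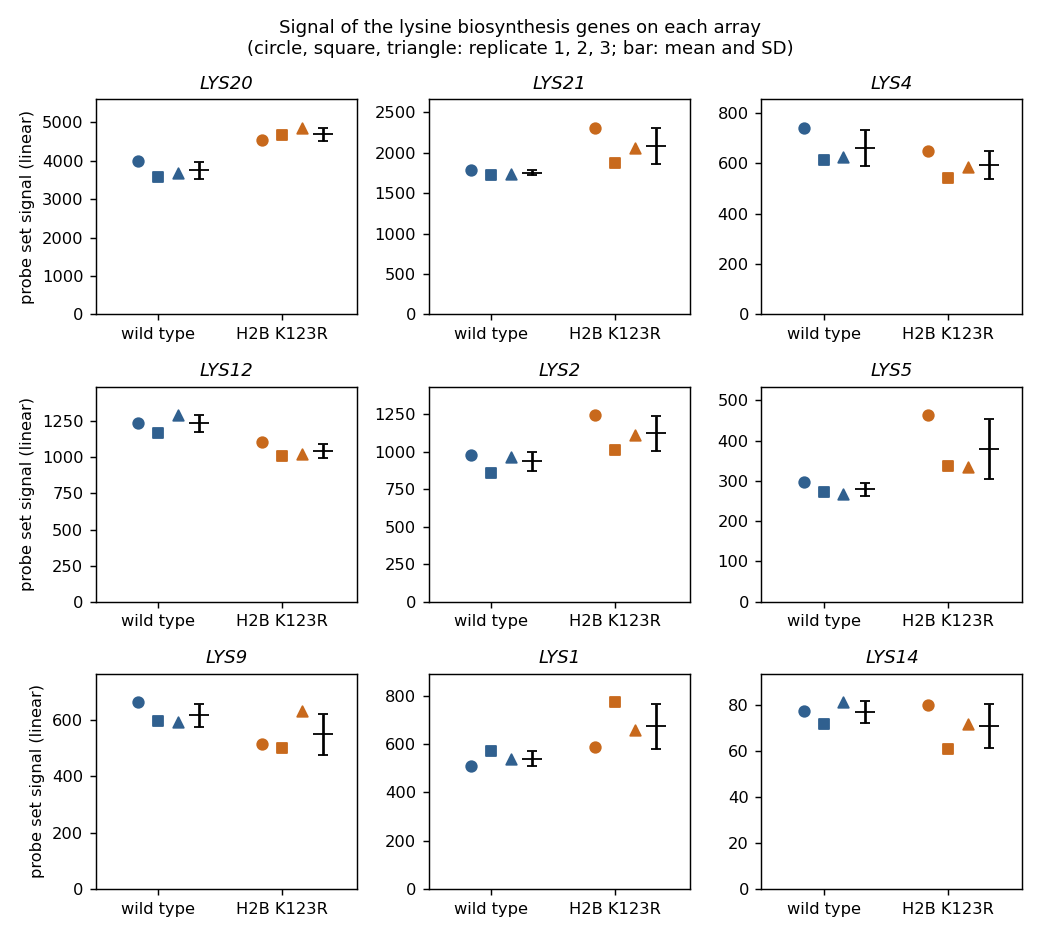
Probe set signal (linear, vertical axes from 0, a scale of its own in each panel) of the 9 lysine genes on the 3 wild-type (blue) and 3 H2B K123R (orange) arrays, in pathway order with the activator LYS14 last; black bars give mean and SD. Mutant values lie above all wild-type values for LYS20, LYS21, LYS2, LYS5 and LYS1 and below them for LYS12, and the groups overlap for LYS4, LYS9 and LYS14.

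The genes of the following steps had lower means in H2B K123R. LYS4 (YDR234W), which encodes homoaconitase, read 742, 614 and 625 in wild type and 650, 540 and 585 in H2B K123R. These values overlapped, and the log2 difference of -0.15 (-0.42 to 0.12) did not pass (adjusted p = 0.442), nor did the -0.22 without replicate 1 (adjusted p = 0.234). LYS12 (YIL094C), the homoisocitrate dehydrogenase gene, read 1238, 1172 and 1295 in wild type and 1103, 1012 and 1021 in H2B K123R. It was the 1 lysine gene whose mutant values all lay below the wild-type values. Its means were 1235 ± 61.5 and 1046 ± 49.9, a log2 difference of -0.24 (-0.42 to -0.05) with an adjusted p of 0.120. Without replicate 1 it was -0.28 (adjusted p = 0.0571). LYS12 passed after quantile normalization (-0.30, adjusted p = 0.0390) and after cyclic loess (-0.31, adjusted p = 0.0290), and the range of its adjusted p over 16 alternative settings was 0.00933 to 0.362.

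The alpha-aminoadipate step needs Lys2, the reductase, and Lys5, the phosphopantetheinyl transferase that gives Lys2 its cofactor. LYS2 (YBR115C) read 976, 860 and 967 in wild type and 1246, 1011 and 1108 in H2B K123R. LYS5 (YGL154C) read 298, 273 and 267 in wild type and 464, 337 and 334 in H2B K123R. For both genes all mutant arrays were above all wild-type arrays, and replicate 1 was the highest of the mutant arrays. LYS2 had a log2 difference of 0.26 (0.01 to 0.50, adjusted p = 0.186), or 0.18 without replicate 1. LYS5 had the largest difference of the 9 genes, 0.40 (0.05 to 0.75, adjusted p = 0.154), which was 0.25 without replicate 1 (adjusted p = 0.122). LYS2 is a common selectable marker of laboratory strains. Its signal was far above the control probe sets in both strains, which does not show whether either strain carries a point mutation in it.

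The saccharopine dehydrogenase genes of the final steps differed in sign. LYS9 (YNR050C), whose product forms saccharopine, read 663, 594 and 591 in wild type and 516, 498 and 631 in H2B K123R. Replicates 1 and 2 were below every wild-type array and replicate 3 was above all but the highest of them. Its log2 difference was -0.17 (-0.44 to 0.10, adjusted p = 0.406), or -0.13 without replicate 1 (adjusted p = 0.535), and with array weights it was 0.01. LYS1 (YIR034C), whose product releases lysine from saccharopine, read 510, 571 and 537 in wild type and 588, 775 and 658 in H2B K123R. The groups did not overlap, but the lowest mutant array, replicate 1, was only just above the highest wild-type array. The log2 difference of 0.31 (0.03 to 0.59) did not pass (adjusted p = 0.173), and without replicate 1 it was 0.40 (adjusted p = 0.0541).

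LYS14 (YDR034C), the gene of the pathway activator, had the lowest signals of the list. It read 77.6, 72.0 and 81.4 in wild type and 80.3, 61.0 and 71.6 in H2B K123R, and the groups overlapped. Its log2 difference was -0.10 (-0.43 to 0.23, adjusted p = 0.686), or -0.18 without replicate 1 (adjusted p = 0.401). The transcript of an activator that responds to an intermediate does not report its activity.

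**Figure D2:**
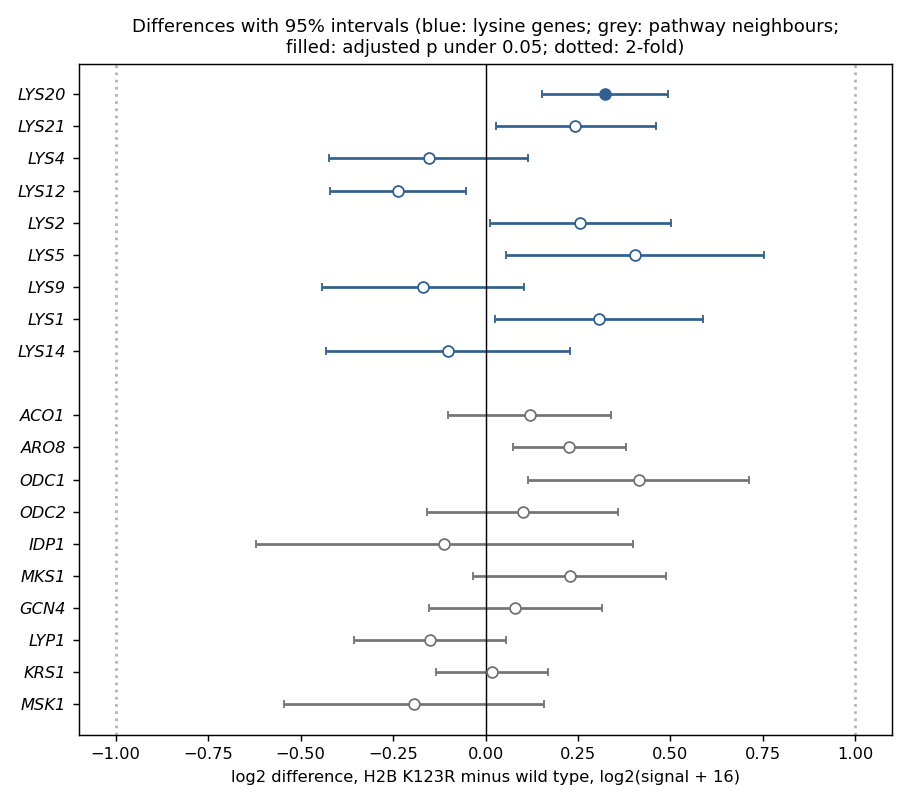
Log2 difference between H2B K123R and wild type (horizontal axis) with its 95% interval for the 9 lysine genes (blue, pathway order) and the 10 pathway neighbours (grey); a filled point passed at an adjusted p under 0.05 and dotted lines mark 2-fold. LYS20 at 0.32 is the 1 filled point, and no interval reaches 2-fold.

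The counts over the lysine genes were set against those over all probe sets. With 9 genes, 1 called higher stood beside 4.22% of probe sets called higher, and 0 called lower by limma beside 2.47% called lower (6.68% called in either direction). Those 9275 probe sets include 2443 that name no gene. With the mean of each gene's probe sets, 843 of 5656 genes were called, 574 of them higher, a larger share than over probe sets. LYS20 was again the 1 lysine gene called. The shares of unadjusted p and of overlap below were taken over probe sets only. Without H2B K123R replicate 1 the counts were again 1 (LYS20) and 0, beside 5.83% of all probe sets called higher and 5.20% called lower in that fit. An unadjusted p under 0.05 was found for 6 of the 9, among them LYS12 as the 1 lower gene, against 24.9% of all probe sets. Non-overlapping groups were found with higher mutant values for 5 of the 9, against 19.0% of all probe sets, and with lower mutant values for LYS12 alone, against 13.5%. The median log2 difference of the 9 genes was 0.24, beside 0.08 over the 5656 genes, and the median size of the difference regardless of sign was 0.24 beside 0.22. Without H2B K123R replicate 1 the median of the 9 genes was 0.17. Within the distribution over all genes LYS5 stood at percentile 86.1, LYS20 at 79.4 and LYS12 at 16.2, and the other 6 lay between LYS12 and LYS20. No test of the list was made, because its members were named with earlier results of these data known.

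**Figure D3:**
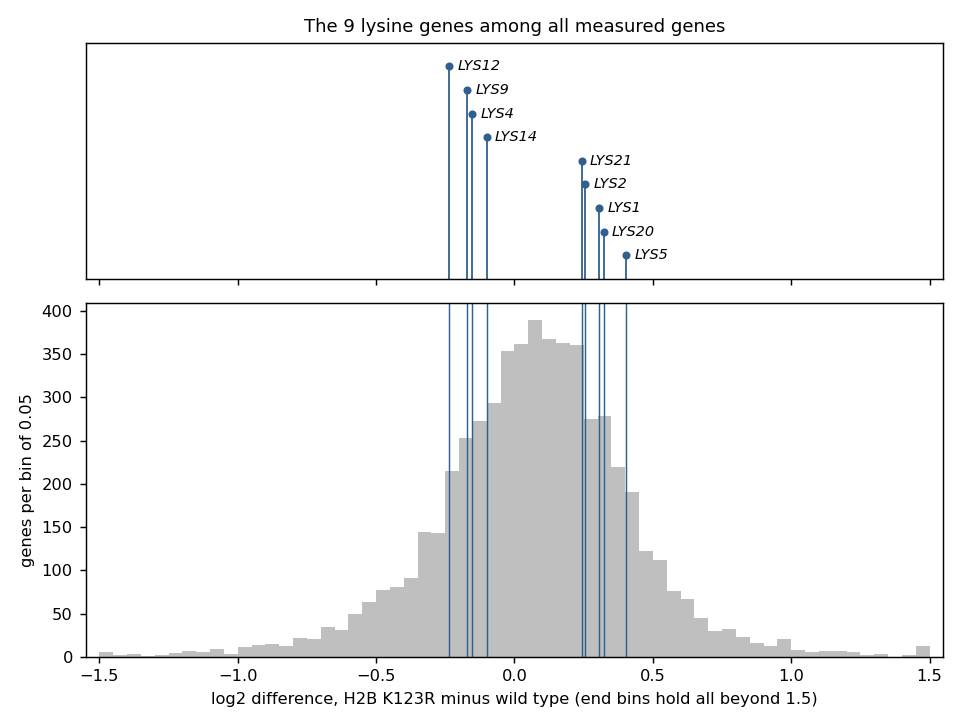
Number of genes (vertical axis, bins of 0.05) by log2 difference between H2B K123R and wild type (horizontal axis) for 5656 genes in grey, with the 9 lysine genes marked by blue lines and named above. The lysine genes fall in a lower cluster from -0.24 to -0.10 and an upper cluster from 0.24 to 0.40, both inside the bulk of the distribution.

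The members also varied between arrays of the same strain. Over the 6 arrays LYS2 and LYS21 correlated at r = 0.95, as did LYS5 and LYS21, while LYS1 and LYS12 correlated at -0.90; the arrays share 2 strains and 1 array that stands apart, so these are descriptions. In the wild type, replicate 1 held the highest value for 6 of the 9 genes and replicate 2 the lowest for 6. In H2B K123R, replicate 1 held the highest value for 6 and replicate 2 the lowest for 6, but not for the same sets of genes. Among the mutant arrays the exceptions to replicate 1 were LYS20 and LYS9, with replicate 3 the highest, and LYS1, with replicate 2 the highest. Among the wild-type arrays they were LYS12 and LYS14, with replicate 3 the highest, and LYS1, with replicate 2 the highest. Genes outside the pathway were picked as the 6 of 4731 whose profiles were most like the mean standardized profile of the members. That mean averages members whose correlations with each other fell to -0.90. The r of the picked genes over 6 arrays was therefore high by selection. It was 0.997 for OSM1, which encodes a fumarate reductase, and 0.994 for VPS73. PPM1, a methyltransferase gene for a protein phosphatase, had 0.989 and MRX8 0.986. DAD1, a gene of the kinetochore's DASH complex, had 0.981 and HOC1, a mannosyltransferase gene, 0.978. None of these 6 passed the strain comparison, with adjusted p between 0.441 and 0.636. OSM1, for example, read 363, 301 and 329 in wild type and 418, 311 and 364 in H2B K123R. Its order of replicates was the same in both strains, as in the mean profile it was picked to match.

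**Figure D4:**
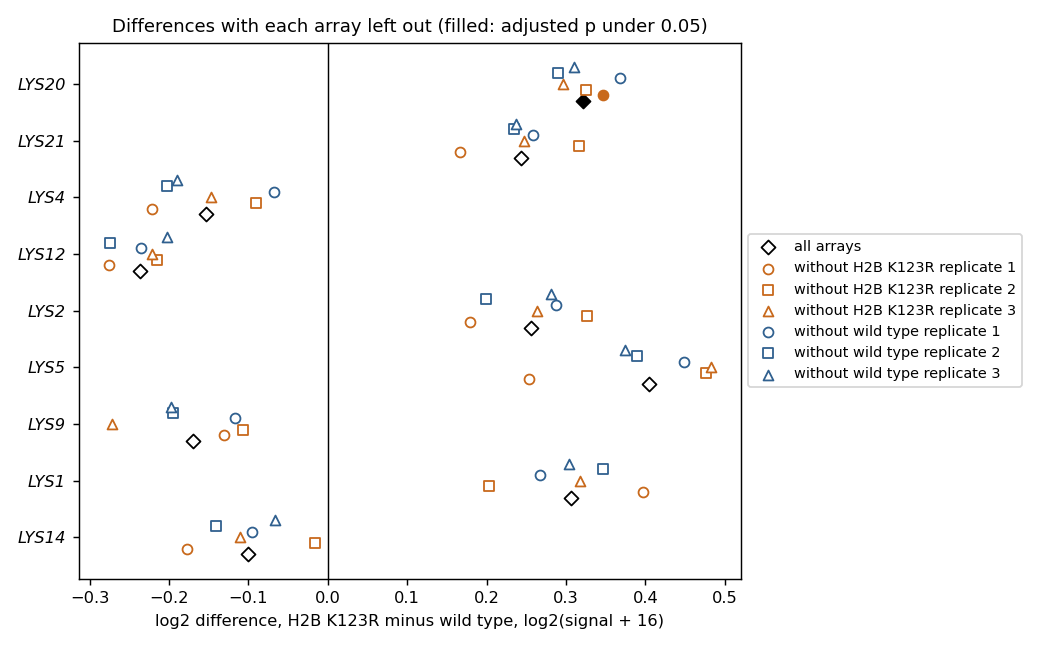
Log2 difference between H2B K123R and wild type (horizontal axis) of the 9 lysine genes on all arrays (black diamonds) and with each wild-type (blue) or H2B K123R (orange) array left out; filled points passed at an adjusted p under 0.05. No gene changes sign, and the 2 filled points are LYS20 on all arrays and LYS20 without H2B K123R replicate 1.

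Of 10 genes around the pathway, 0 passed in either direction in limma's test, beside 6.68% of all probe sets. An unadjusted p under 0.05 was found for 2 of the 10, ARO8 and ODC1, beside 24.9%. ARO8, an aminotransferase gene whose product also acts on alpha-aminoadipate, read 4253, 4079 and 4121 in wild type and 4702, 4811 and 5070 in H2B K123R, without overlap. Its log2 difference was 0.23 (0.07 to 0.38, adjusted p = 0.0879), and it passed without H2B K123R replicate 1 (0.25, adjusted p = 0.0454), after quantile normalization (0.32, adjusted p = 0.0215) and after cyclic loess (0.29, adjusted p = 0.0202). ODC1, a mitochondrial carrier of 2-oxoadipate and 2-oxoglutarate, read 181, 165 and 172 in wild type and 269, 207 and 232 in H2B K123R, a difference of 0.41 (0.11 to 0.71, adjusted p = 0.104). Without H2B K123R replicate 1, the highest array for ODC1, the difference was 0.32 (adjusted p = 0.101). The isoform gene ODC2 differed by 0.10 (adjusted p = 0.602) with overlapping groups, and by 0.11 without that replicate (adjusted p = 0.602).

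Among supply genes, the aconitase gene ACO1 differed by 0.12 (adjusted p = 0.465) and the mitochondrial isocitrate dehydrogenase gene IDP1 by -0.11 (adjusted p = 0.786). IDP1 read 1405, 1631 and 1418 in wild type and 958, 1601 and 1676 in H2B K123R, where replicate 1 was the low one, and its difference was 0.14 without replicate 1. Of the regulators, GCN4 read 5631, 5096 and 5522 in wild type and 6417, 5130 and 5691 in H2B K123R, with a difference of 0.08 (-0.15 to 0.31, adjusted p = 0.651). Gcn4 is controlled mainly at translation, which an RNA array does not measure. MKS1, also called LYS80, a negative regulator of the lysine genes, read 129, 125 and 137 in wild type and 162, 147 and 156 in H2B K123R. These groups did not overlap, but the difference of 0.23 (-0.03 to 0.49) did not pass (adjusted p = 0.257). The lysine permease gene LYP1 differed by -0.15 (adjusted p = 0.333), and the lysyl-tRNA synthetase genes KRS1 (cytosolic) and MSK1 (mitochondrial) by 0.02 and -0.19 (adjusted p = 0.895 and 0.456). Without H2B K123R replicate 1, MSK1 differed by -0.05, GCN4 by -0.002 and ACO1 by 0.21 (adjusted p = 0.777, 0.993 and 0.0838). In the same fit MKS1 differed by 0.198, LYP1 by -0.119 and KRS1 by 0.01 (adjusted p = 0.2675, 0.4276 and 0.9459).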

How the data were processed

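Each culture's RNA was biotin-labelled and hybridised to 1 array (3 wild type, 3 H2B K123R), per the labels' protocols. The authors deposited linear probe set intensity, scaled beforehand: with 2% trimmed from both ends, array means were 500.4 to 500.5. The software that summarized probe sets was not stated there. Of 9335 probe sets, 60 controls were set aside. The platform annotation names 1 gene for 6504 of the other 9275, several for 328 and none for 2443; each lysine gene has 1 probe set of its own, and its symbol was checked through its gene identifier against the R64 gene table. Neither labels nor files name the array design's genome build, and coordinates and sequences were not used here.

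Signals were tested as log2(signal + 16) with limma 3.58.1 in R 4.3.3 (lmFit and trended eBayes, two-sided tests; Benjamini-Hochberg over 9275 probe sets). The number of arrays limits the precision. Alternatives were pseudocounts of 1 and 64, quantile, cyclic loess and median normalization, a minimum mean signal of 50, no variance trend, array weights, a replicate block, each array left out, and the mean of a gene's probe sets. All lysine genes and pathway neighbours were named by rule, with the 6 genes most like the members' mean profile among 4731 with a mean signal of at least 50. 1 further gene of the neighbour list is not reported here. The members, lists and tests were chosen with earlier results of these data known.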

Additional observations from a re-analysis of the deposited data

How the results depend on the processing

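Of 16 alternative settings, LYS20 stayed positive in 16 (0.29 to 0.415 on the log2 scale) and was called in 8. The number of lysine genes called higher was 1 on all arrays, 0 with array medians set equal, without a variance trend or with a replicate block, and 5 with array weights (LYS1, LYS2, LYS5, LYS20 and LYS21). Called lower were 0 on all arrays and 1 (LYS12) with array weights, cyclic loess or quantile normalization. Neighbours called numbered 0 on all arrays, 1 after quantile normalization or cyclic loess (ARO8) and 4 with array weights (ACO1, ARO8, ODC1 and LYP1). The median of the lysine genes was 0.24, and 0.17 after cyclic loess. Over all 9275 probe sets, 620 were called on all arrays, 391 of them higher. With array weights 2885 were called (1605 higher) and with the replicate block 307 (193 higher). After cyclic loess 923 were called (505 higher) and after quantile normalization 752 (464 higher). With array medians set equal 761 were called (486 higher) and without a variance trend 614 (389 higher). With an array left out, calls over all probe sets ranged from 22 (without wild-type replicate 3) to 1023 (without H2B K123R replicate 1), lysine genes called higher from 0 to 1, neighbours called from 0 to 1 and the lysine median from 0.17 (without H2B K123R replicate 1) to 0.26. Sign changes were seen for genes that were not called: LYS9 at 0.011 and IDP1 at 0.15 with array weights, ODC2 at -0.018 after cyclic loess and KRS1 at -0.003 with array medians set equal. With an array left out, IDP1 ranged from -0.26 to 0.14, GCN4 from -0.002 to 0.16 and KRS1 from -0.006 to 0.044. The causes of these changes were not tested. Titles give both strains the same replicate numbers, and deviations from the group means correlated at 0.32, 0.38 and 0.05 for replicates 1, 2 and 3. Each array correlated best with its own number, but for replicate 3 only narrowly. H2B K123R replicate 3 correlated at 0.02 with wild-type replicate 2, and wild-type replicate 3 at 0.01 with H2B K123R replicate 2. This is a hint from the data only, since the labels do not say that numbers pair cultures. With the replicate block LYS20 had an adjusted p of 0.0867. The unadjusted p of LYS20 was 0.00310 and the largest that passed was 0.00332, so its call rests on a narrow margin, and 3 arrays a strain limit the precision.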
